A study of Bos taurus with 6 samples.

Results

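The 39 genes described here encode the autophagy machinery, its cargo receptors, the lysosomal membrane proteins LAMP1 and LAMP2 and the transcription factors TFEB and TFE3. They were taken by name from a list, by a rule that uses no measured value although earlier results of these data were known, and all 39 were found among the 22839 gene symbols of the count tables. The default filter on low counts kept 38 of them and removed ATG4B, so counts of genes past a threshold are given out of 38. Expression was measured by 3′ mRNA sequencing in longissimus thoracis muscle (LT) of 6 Korean cattle (Hanwoo) steers fed commercial feed, 1 library per steer. The high-NFMP steers, with a high number of fine marbling particles, were 3-8, 10-8 and 10-9, aged 32.5, 33.8 and 34.5 months. The low-NFMP steers were 3-1, 3-3 and 10-16, aged 37.8, 33.7 and 35.4 months. The steers were untreated, so the groups are an observed contrast between animals, and no genotype within the breed was stated. Per the study, the sequenced high-NFMP steers also had a higher mean marbling score and a larger mean rib eye area. Differences tied to these traits cannot be told apart from those tied to NFMP. The 3 steers of each group were drawn at random from a larger group selected on NFMP.

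Autophagy is the route by which cells enclose part of their cytoplasm in a double membrane, the autophagosome, and deliver it to the lysosome for breakdown. A kinase complex around ULK1 starts the process, a lipid kinase complex around PIK3C3 marks the membrane, and a pair of ubiquitin-like conjugation systems attach ATG8 proteins such as MAP1LC3B to it. Receptors such as SQSTM1 tie cargo to the ATG8 proteins, and TFEB and TFE3 switch on genes for autophagy and lysosomes when nutrients are short. In skeletal muscle the pathway clears worn proteins and mitochondria and is known to respond to fasting and exercise.

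Totals lay between 16283873 and 17192750 counts per library, and the 39 genes together took between 0.19% and 0.21% of the counts of each library. A normalized count below is a read count scaled to the mean effective library size. Muscle fibre markers were abundant in each steer, with 10 summed markers at 1711000 to 2070000 normalized counts in the high-NFMP group and 1727000 to 2139000 in the low-NFMP group. Of 10 adipocyte markers, 9 had a higher estimate in the high-NFMP group and 3 (ADIPOQ, CIDEC and LIPE) had an unadjusted p below 0.05, while over all 15039 tested rows 51.9% of estimates were higher and 11.5% of rows passed that limit. Their summed level was 5421 to 14590 against 5845 to 7114, and the highest value belonged to steer 3-8. Of 8 macrophage markers, 2 (AIF1 and C1QA) passed in the same direction, with sums of 734.6 to 1125 against 563.6 to 979. Of the 8 estimates 6 were higher and 2 (CD163 and CD68) lower. The 8 fibroblast markers summed to 12340 to 15660 against 9571 to 12700, with PDGFRA lower and 6 of the 8 estimates higher. The 7 endothelial markers summed to 1296 to 1851 against 1237 to 1597, with CLDN5 higher and 4 of the 7 estimates lower. The 3 satellite cell markers found summed to 689 to 990.9 against 415.9 to 1609, most of it MYOD1. MYOD1 and CDH15 had lower estimates. MYF5, removed by the filter on low counts, had raw counts of 39, 26 and 10 in steers 3-8, 10-8 and 10-9. In steers 3-1, 3-3 and 10-16 it had 7, 6 and 1. The 4 red blood cell markers summed to at most 54.7 normalized counts in any steer. Reads on the 13 protein genes of the mitochondrial genome held 16.5% to 19.8% of the counts in the high-NFMP group and 12.5% to 15.1% in the low-NFMP group. The part of these differences in the results below was not tested. In bulk muscle, more cells of a type and more RNA per cell cannot be told apart.

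Few of the autophagy and lysosome genes differed between the groups. ATG101 and ATG9A were higher in the high-NFMP group at an unadjusted p below 0.05 in edgeR's quasi-likelihood test, and no gene of the 38 was lower at that p. That is 2 of 38, whereas 11.5% of all 15039 tested rows passed the same limit, 5.73% being higher and 5.74% lower. None of the 38 passed when a fold change above 2 was also required, which 3.9% of all rows did. None had a Benjamini-Hochberg adjusted p below 0.05, against 0.685% of all rows, and the smallest adjusted p was 0.111. DESeq2 gave 1 such gene of the 38, ATG101, and it also passed more rows in all, 291 of 15039 against 103 in edgeR. The 3 steers of one group lay above the 3 of the other for 5 of the 38 genes (ATG101, ATG9A and ULK1 higher, BECN1 and ATG3 lower), against 17.1% of all rows.

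The median log2 fold change, high over low NFMP, was 0.02 over the 38 genes and 0.02 over all tested rows. Positive estimates were found for 20 and negative ones for 18. With library totals alone in place of trimmed mean of M-values (TMM) scaling, the split was 15 to 23, and the median of all rows moved from 0.02 to -0.05. The extreme estimates were 0.84 for ATG101 and -0.45 for ATG4A. For 31 of the 38 genes the 95% interval lay within a 2-fold change in either direction, so a larger difference was outside the interval for those 31. The remaining 7 genes were ATG101, ATG9A, WIPI1, ATG12, ATG4A, BNIP3 and FUNDC1, whose intervals reached past it.

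**Figure D1:**
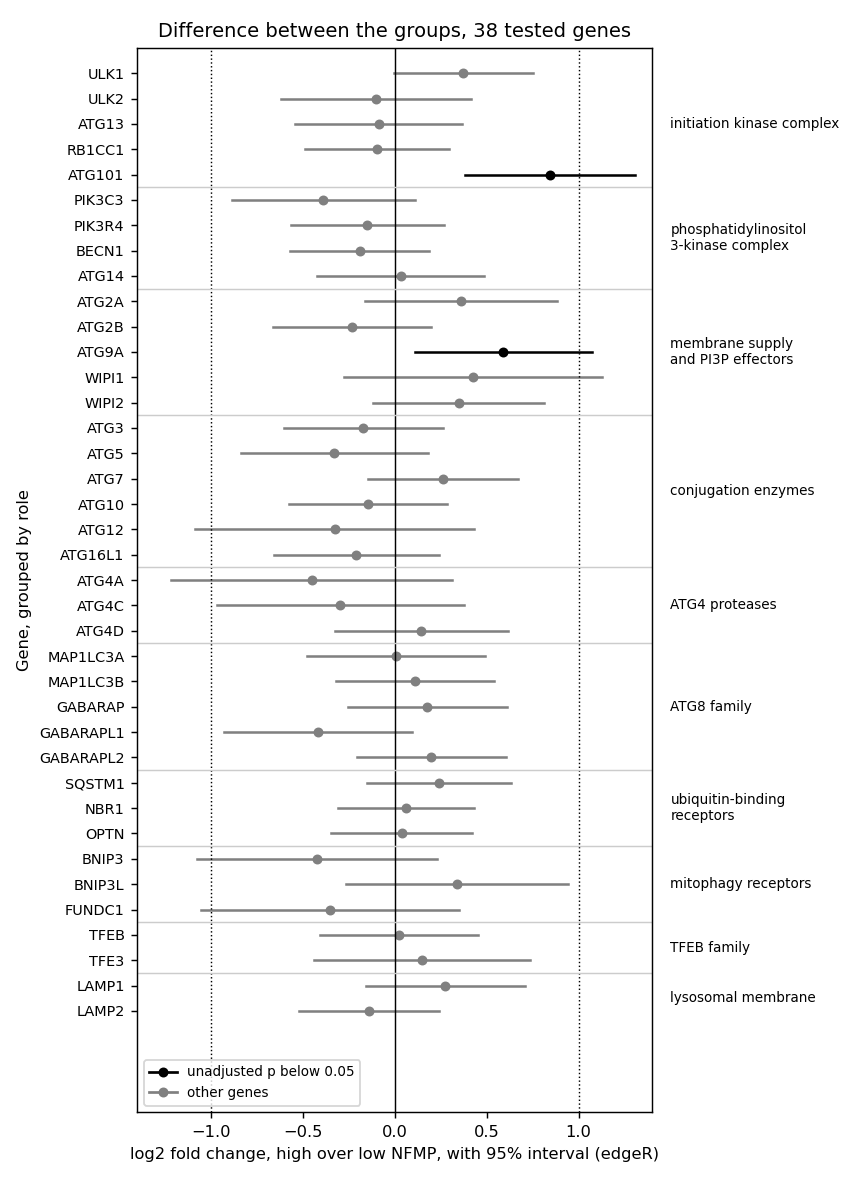
Log2 fold change (high over low NFMP) of the 38 tested genes with the 95% interval from edgeR, grouped by role, with dotted lines at a 2-fold change. The black intervals of ATG101 and ATG9A lie above 0, and the 36 grey intervals include 0.

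The steers of one group also differed among themselves. In the median gene the highest steer was 1.32 times the lowest within the high-NFMP group and 1.36 times within the low-NFMP group, while the median fold between the group means, a different measure, was 1.16. The low-NFMP group held both extremes. Steer 3-3 lay below the gene's own mean for 28 of the 38 genes, with a median deviation of -0.14 on the log2 scale, and steer 10-16 lay above it for 26 genes, with a median of 0.09. Over all tested rows the medians of these steers were 0.02 and 0.01. The 3 high-NFMP steers had medians of 0.05 (3-8), -0.02 (10-8) and 0.04 (10-9).

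**Figure D2:**
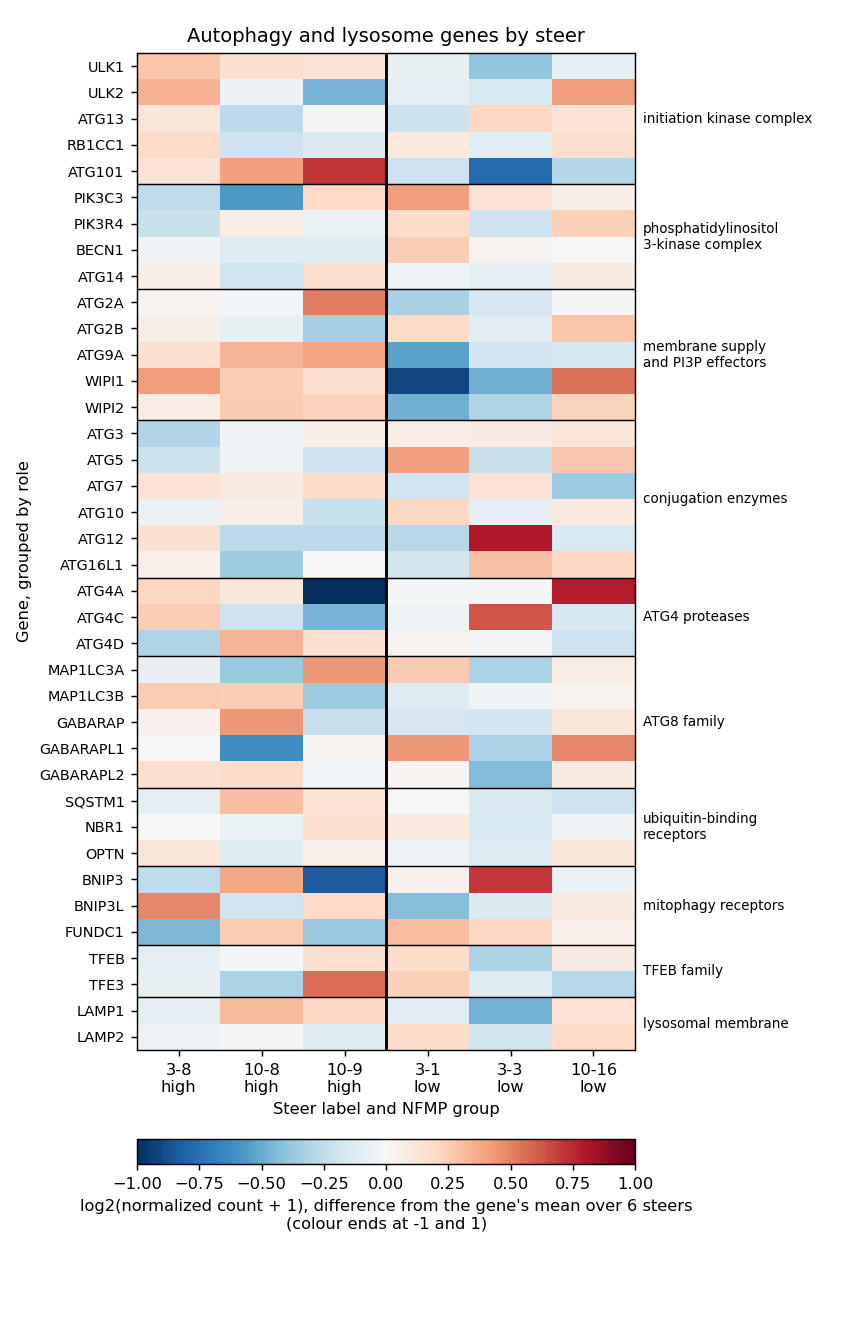
Heat map of log2(normalized count + 1) of the 38 tested genes (rows, grouped by role) in the 6 steers (columns), as the difference from each gene's mean, with the groups parted by a thick line. ATG101 and ATG9A are red in all 3 high-NFMP columns and blue in all 3 low-NFMP columns, while most rows mix both colours within a group.

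Among the initiation genes, ATG101 showed the widest difference of all 38. ATG101 encodes a small partner that binds ATG13 and steadies it within the ULK1 complex. Raw counts of ATG101 were 526 (steer 3-8), 580 (10-8) and 792 (10-9) at high NFMP, and 437 (3-1), 306 (3-3) and 394 (10-16) at low NFMP. Normalized, these were 533, 644.5 and 794.3 against 418.2, 283.2 and 397.8, so the lowest high-NFMP steer stood above the highest low-NFMP steer. The means were 657.3 ± 131 (SD, n = 3) and 366.4 ± 72.8 (SD, n = 3) normalized counts. The log2 fold change was 0.84 (standard error 0.22, 95% interval 0.38 to 1.31), with an unadjusted p of 0.00151 and an adjusted p of 0.111 in edgeR. The estimate lay between 0.68 without steer 3-3 and 0.97 without steer 3-8, and the unadjusted p was at most 0.0138 whichever steer was left out. LOC104972390, which overlaps ATG101 in the RefSeq gene table, had means of 26.4 and 28.8 normalized counts.

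The direction for ATG101 was the same among steers whose label begins with 3 and among those whose label begins with 10, a number whose meaning the labels do not give. The differences in log2(normalized count + 1) were 0.63 for 3-8 against 3-1 and 3-3, and 0.85 for 10-8 and 10-9 against 10-16. With that number as a term the log2 fold change was 0.73 (adjusted p = 0.225), and with age as a term it was 1.17 (adjusted p = 0.113). DESeq2 gave 0.85 with an adjusted p of 0.0339, and without a filter on low counts edgeR gave an adjusted p of 0.0412. At an adjusted p below 0.05 these fits also held more rows in all. They held 291 of 15039 and 240 of 23015, against 103 of 15039.

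The other genes of the complex did not pass the test. ULK1, the kinase that starts autophagy, had 1324, 1217 and 1195 normalized counts in steers 3-8, 10-8 and 10-9 and 1037, 827.3 and 1019 in steers 3-1, 3-3 and 10-16. Its groups did not overlap, at 1246 ± 69.1 (SD, n = 3) and 961.1 ± 116 (SD, n = 3). The log2 fold change was 0.37 (standard error 0.18, unadjusted p = 0.0522, adjusted p = 0.442 in edgeR), just short of the limit. ULK1 crossed the limit in 4 of the alternative fits, among them those without steer 10-8 (unadjusted p = 0.04999) and without steer 10-9 (unadjusted p = 0.0438 in edgeR). ULK2, its close relative, ranged from 245.7 to 454.3 over the 6 steers and had a log2 fold change of -0.10. ATG13, the adaptor that ATG101 binds, ranged from 231.1 to 320.2 with a log2 fold change of -0.09, and RB1CC1, the scaffold of the complex, from 953.5 to 1256 with -0.10.

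Ratios between partners, chosen after seeing the values, were not tested. The ratio of ATG101 to ATG13 counts was 1.76, 2.79 and 2.84 in steers 3-8, 10-8 and 10-9, and 1.75, 0.88 and 1.30 in steers 3-1, 3-3 and 10-16. Steers 3-8 and 3-1 were almost equal on this ratio. The ratio of ULK1 to ULK2 counts was 3.07, 3.72 and 4.87 against 3.26, 2.71 and 2.24, so these groups overlapped.

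**Figure D3:**
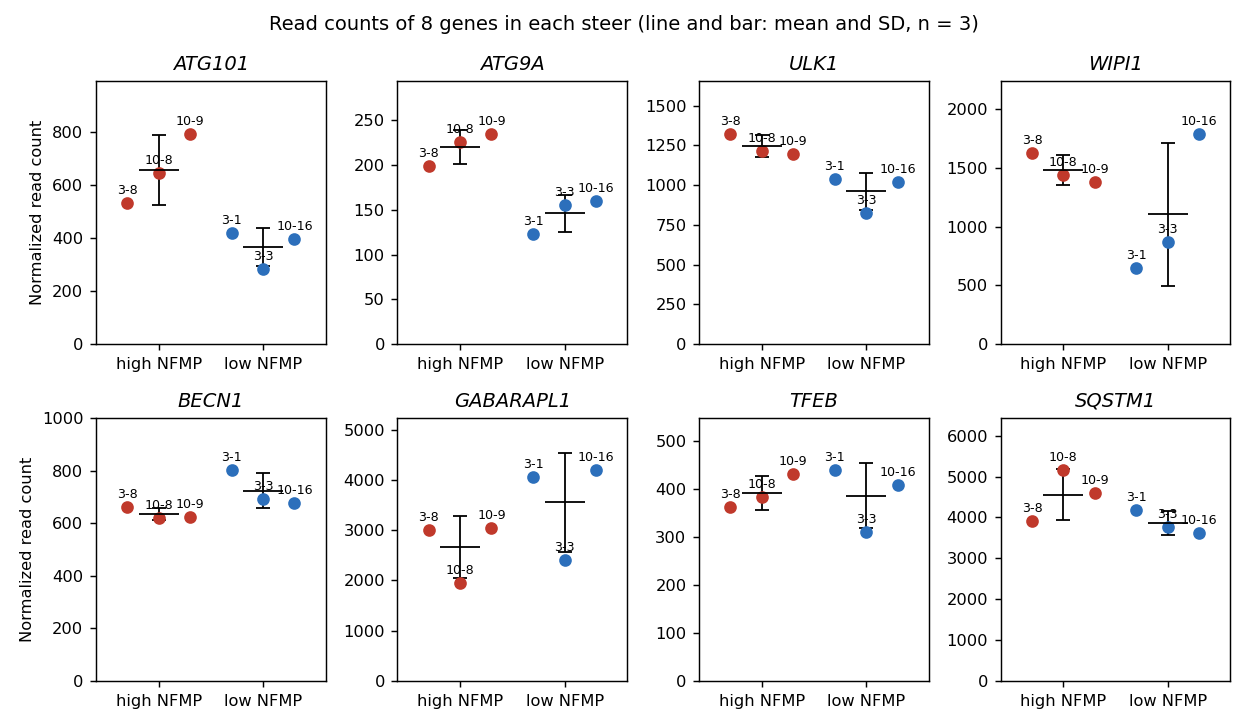
Normalized read counts of 8 genes in each steer (points, with the steer label), by group, with the mean as a line and the SD as a bar (n = 3). ATG101, ATG9A and ULK1 are separated upwards in the high-NFMP group and BECN1 downwards, while WIPI1, GABARAPL1, TFEB and SQSTM1 overlap.

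The lipid kinase complex had lower estimates for 3 of its 4 genes, and none passed the test. BECN1 encodes Beclin 1, the regulatory subunit to which activators and BCL2 bind. BECN1 had 661.7, 619 and 623.8 normalized counts in steers 3-8, 10-8 and 10-9, and 801.9, 693.1 and 678.4 in steers 3-1, 3-3 and 10-16. The groups did not overlap, but the gap between 661.7 and 678.4 was narrow. The log2 fold change was -0.19 (standard error 0.18, unadjusted p = 0.298, adjusted p = 0.713 in edgeR). CNTD1 overlaps BECN1 in the RefSeq gene table, and its log2 fold change was -0.33. PIK3C3, the catalytic lipid kinase, ranged from 185.6 to 317.9 in the high-NFMP group and from 288.7 to 369.4 at low NFMP. The log2 difference was -0.39 (unadjusted p = 0.116), and without steer 10-9, the high-NFMP steer with the most PIK3C3 counts, it was -0.61 (unadjusted p = 0.0193 in edgeR). PIK3R4, its regulatory kinase subunit, and ATG14, which directs the complex to autophagosomes, had log2 fold changes of -0.15 and 0.03.

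The second gene past the p limit was ATG9A, which encodes the membrane protein carried on the vesicles that seed the autophagosome. ATG9A had 198.6, 225.6 and 234.7 normalized counts in steers 3-8, 10-8 and 10-9, and 122.5, 155.5 and 159.5 in steers 3-1, 3-3 and 10-16. Each high-NFMP steer stood above each low-NFMP steer. The means were 219.6 ± 18.8 (SD, n = 3) and 145.8 ± 20.3 (SD, n = 3). The log2 fold change was 0.59 (standard error 0.23, 95% interval 0.11 to 1.07, unadjusted p = 0.0197, adjusted p = 0.324 in edgeR). Within steers of label number 3 and of label number 10 the differences in log2(normalized count + 1) were 0.52 and 0.53. ATG9A no longer passed the p limit without steer 3-1, at 0.48 (unadjusted p = 0.0957), and with age as a term, at 0.51 (unadjusted p = 0.111).

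ATG2A and ATG2B encode the lipid transfer proteins that feed the growing membrane and work with ATG9A. ATG2A ranged from 150 to 217.6 in the high-NFMP group and from 121.5 to 150.4 in the low-NFMP group (log2 fold change 0.36, unadjusted p = 0.164 in edgeR). ATG2B had the opposite sign, at -0.23, with 292.9 to 384.1 against 340.5 to 445.2 normalized counts. WIPI1 and WIPI2 encode proteins that read the lipid mark made by the PIK3C3 complex, and WIPI2 then recruits ATG16L1.

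WIPI1 differed more within the low-NFMP group than between the groups. It had 1627, 1441 and 1375 normalized counts in steers 3-8, 10-8 and 10-9, and 648.8, 871.7 and 1789 in steers 3-1, 3-3 and 10-16. Steer 10-16 was thus the highest of all 6 and steer 3-1 the lowest. The log2 fold change was 0.43 (unadjusted p = 0.206) with all 6 steers and 0.99 (unadjusted p = 0.000655, adjusted p = 0.0787 in edgeR) without steer 10-16. Among steers of label number 3 the difference in log2(normalized count + 1) was 1.11 and among those of label number 10 it was -0.35. ARSG overlaps WIPI1 in the RefSeq gene table and had 3183 and 3250 normalized counts in the high- and low-NFMP groups. Its raw counts were, as for WIPI1, lowest in steer 3-1 (2016) and highest in steer 10-16 (4449). Whether reads were shared was not tested. WIPI2 had the same order in part, with 359.7 to 411.2 against 245, 277.6 and 398.8, and a log2 fold change of 0.35 with all steers and 0.61 (unadjusted p = 0.0211 in edgeR) without steer 10-16.

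None of the 6 genes of the conjugation systems passed the test, and 5 of the 6 had a lower estimate in the high-NFMP group. ATG3, the enzyme that hands ATG8 proteins to the membrane lipid, had 219.9, 262.3 and 280.8 normalized counts in steers 3-8, 10-8 and 10-9, and 281.3, 284.1 and 292.8 in steers 3-1, 3-3 and 10-16. Its groups did not overlap, with only 280.8 and 281.3 between them, and the log2 fold change was -0.17 (standard error 0.20, unadjusted p = 0.414 in edgeR). ATG7, which activates ATG8 proteins and ATG12, was the exception in sign, with 635.6 to 678 against 464.4 to 660.7 and a log2 fold change of 0.26. ATG5 and ATG12, which are joined to each other, had log2 fold changes of -0.33 and -0.33. ATG12 was the rarest of these genes, with 52.2 to 69.9 against 51.7, 110.1 and 56.5 normalized counts, and steer 3-3 alone held the value of 110.1. ATG10, which joins ATG12 to ATG5, and ATG16L1, which binds the joined pair, had log2 fold changes of -0.15 and -0.21.

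The ATG4 proteases trim new ATG8 proteins and later cut them from the membrane. ATG4B was listed at 0 in 5 libraries and at 4 counts in steer 3-3, and a count of 0 allows up to 3 reads, so its level could not be compared. ATG4A showed wide spread, with 103.4, 96.7 and 42.1 normalized counts in steers 3-8, 10-8 and 10-9 and 88, 88.8 and 154.5 in steers 3-1, 3-3 and 10-16 (log2 fold change -0.45, standard error 0.36, unadjusted p = 0.226 in edgeR). ATG4C ranged from 62.2 to 102.4 and from 76.7 to 133.3, and ATG4D from 213.8 to 333.4 and from 228.2 to 269.8, with log2 fold changes of -0.30 and 0.15. ATG4D overlaps KRI1 in the RefSeq gene table, and the counts of ATG4D were 0.96 to 1.02 times those of KRI1 in the 6 libraries. Reads of these overlapping genes cannot be told apart here.

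The ATG8 family, the ubiquitin-like proteins that coat the autophagosome, held no gene past the test. MAP1LC3B, the most widely used marker of autophagosomes, had 872.5, 866.8 and 567.6 normalized counts in steers 3-8, 10-8 and 10-9, and 669.8, 711.6 and 752.1 in steers 3-1, 3-3 and 10-16. The high-NFMP group thus held both the highest and the lowest values, and the log2 fold change was 0.11 (standard error 0.20, 95% interval -0.32 to 0.54). MAP1LC3A had a log2 fold change of 0.01 (95% interval -0.48 to 0.49) and ranged from 569 to 992.9 over the 6 steers.

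GABARAPL1 had the lowest estimate of the family. It had 2997, 1950 and 3035 normalized counts in steers 3-8, 10-8 and 10-9, and 4057, 2413 and 4192 in steers 3-1, 3-3 and 10-16. Steer 3-3 stood apart from the other two low-NFMP steers, and the groups overlapped through it. The log2 fold change was -0.42 (standard error 0.24, unadjusted p = 0.103), and without steer 3-3 it was -0.64 (unadjusted p = 0.0183, adjusted p = 0.425 in edgeR). GABARAP ranged from 1931 to 3062 and from 1989 to 2468, and GABARAPL2 from 1223 to 1415 and from 923.5 to 1330, with log2 fold changes of 0.18 and 0.20. GABARAPL2 overlaps ADAT1 in the RefSeq gene table, its counts were 0.55 to 0.68 times those of ADAT1, and the log2 fold change of ADAT1 was 0.17. The ratio of GABARAPL1 to GABARAP counts varied from 0.64 in steer 10-8 to 2.01 in steer 3-1. These genes are close relatives, and the methods of the study name counts of reads that align to several places. If the deposited counts include such reads, part of a count may belong to a similar copy.

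The ubiquitin-binding receptors SQSTM1, NBR1 and OPTN were among the most counted of the 38 genes and did not pass the test. SQSTM1, which encodes p62, had 3912, 5151 and 4598 normalized counts in steers 3-8, 10-8 and 10-9, and 4190, 3768 and 3613 in steers 3-1, 3-3 and 10-16. Only steer 3-8 fell within the low-NFMP range, and the log2 fold change was 0.24 (standard error 0.18, unadjusted p = 0.211 in edgeR). MRNIP overlaps SQSTM1 in the RefSeq gene table and had means of 2069 and 1556 normalized counts. OPTN, with a mean of 4614 over the 6 steers, had a log2 fold change of 0.04 (95% interval -0.34 to 0.42). NBR1, a relative of SQSTM1, ranged from 1227 to 1527 with a log2 fold change of 0.06 (95% interval -0.31 to 0.43).

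Receptors anchored in the mitochondrial membrane lead damaged mitochondria to the autophagosome. BNIP3 had 288.8, 451.2 and 193.6 normalized counts in steers 3-8, 10-8 and 10-9, and 356, 562.6 and 331.1 in steers 3-1, 3-3 and 10-16. Its log2 fold change was -0.42 (unadjusted p = 0.183) and, without steer 10-8, -0.76 (unadjusted p = 0.0182, adjusted p = 0.389 in edgeR). BNIP3L, its closest relative, had the opposite sign at 0.34 with 84.5 to 135.8 against 71.8 to 103 normalized counts. FUNDC1 was counted least of the 38, at 42.6 to 70 against 60.6 to 72.7, and its log2 fold change was -0.35 (standard error 0.33).

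TFEB, the main transcriptional switch for lysosome and autophagy genes, did not pass the test. It had 361.8, 383.4 and 430.2 normalized counts in steers 3-8, 10-8 and 10-9, and 438.3, 309.1 and 407.9 in steers 3-1, 3-3 and 10-16. The highest and the lowest values were both in the low-NFMP group, and the log2 fold change was 0.03 (95% interval -0.40 to 0.46, unadjusted p = 0.901 in edgeR). TFE3 ranged from 117.8 to 217.6 and from 121.1 to 174.2, and its log2 fold change was 0.15 (standard error 0.28). The activity of both factors is set by their entry into the nucleus, which these counts do not measure.

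LAMP1 and LAMP2 encode the main glycoproteins of the lysosomal membrane. LAMP2 had 1939, 1980 and 1843 normalized counts in steers 3-8, 10-8 and 10-9, and 2285, 1771 and 2288 in steers 3-1, 3-3 and 10-16. Its groups overlapped through steer 3-3, and the log2 fold change was -0.14 (standard error 0.18, unadjusted p = 0.449 in edgeR). LAMP1 ranged from 2871 to 3824 against 2215 to 3399, with a log2 fold change of 0.28 (unadjusted p = 0.194). GRTP1 overlaps LAMP1 in the RefSeq gene table, and LAMP1 counts were 0.99 to 1.02 times those of GRTP1 in every library, so the reads of these genes cannot be told apart.

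Around the 39 genes, 8 lists of related pathway genes held 133 tested genes. Of these, 15 had an unadjusted p below 0.05, 8 of them with a higher and 7 with a lower level at high NFMP, close to the 11.5% of all tested rows. With library totals alone, which moved the median of all rows down, it was 4 higher and 8 lower, and 11% of all rows passed. Their median log2 fold change was 0.10. FNIP2 and DEPP1 were the only genes of the 8 lists with an adjusted p below 0.05 in edgeR with all steers, the default filter and no covariate. DESeq2 also gave SESN1 (adjusted p = 0.0239), SH3GLB1 (adjusted p = 0.0409) and USP15 (adjusted p = 0.0403), and SESN1 passed too with no filter, with age as a term and without steer 3-1. Over all rows DESeq2 held 291 at an adjusted p below 0.05, against 103 in edgeR. The fits with no filter, with age and without steer 3-1 held 240, 31 and 82 such rows. DEPP1, named for its regulation by progesterone in decidua and known as an autophagy regulator, had 289.8, 232.3 and 478.4 normalized counts in steers 3-8, 10-8 and 10-9, and 40.2, 46.3 and 78.8 in steers 3-1, 3-3 and 10-16. DEPP1 lies within RASSF4 in the RefSeq gene table, and RASSF4 had means of 453.4 and 86.5, so shared reads are possible. DEPP1 differed by 2.60 on the log2 scale (adjusted p = 0.00303 in edgeR).

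**Figure D4:**
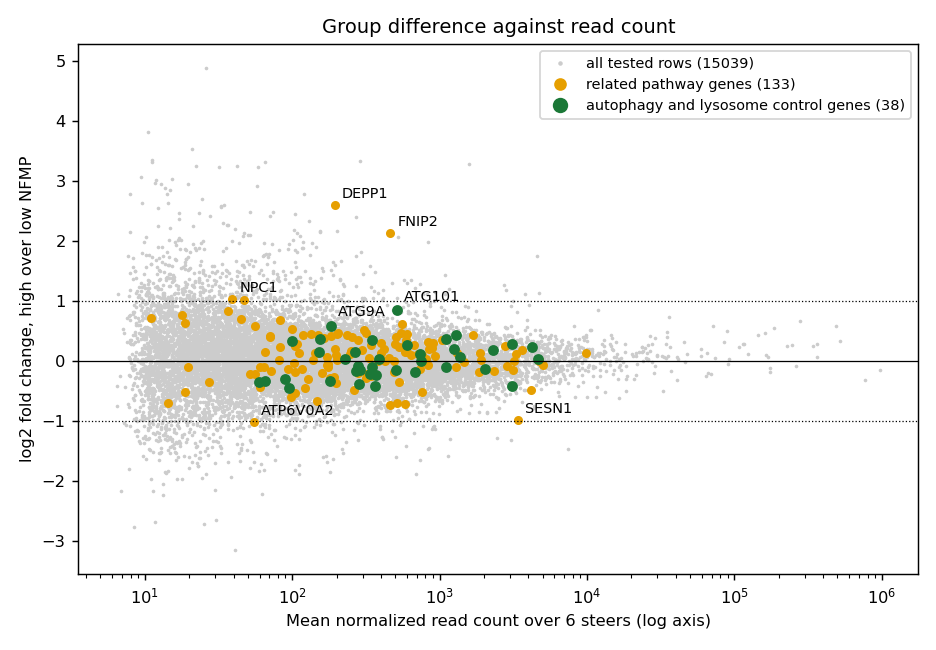
Log2 fold change (high over low NFMP) against the mean normalized read count over the 6 steers (log axis) for all 15039 tested rows (grey), 133 related pathway genes (orange) and the 38 autophagy and lysosome control genes (green), with dotted lines at a 2-fold change. The green points stay between -0.45 and 0.84, while FNIP2 and DEPP1 stand above 2.

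The mTORC1 kinase on the lysosome holds ULK1 and TFEB in check when amino acids are plentiful. Of 29 tested genes of mTORC1 and lysosomal nutrient sensing, 2 were higher and 2 lower, a share of 13.8% against 11.5% of all rows. FNIP2, a partner of folliculin, had 486.4, 1021 and 750.2 normalized counts in steers 3-8, 10-8 and 10-9 and 181.8, 192.5 and 142.3 in steers 3-1, 3-3 and 10-16 (log2 fold change 2.13, adjusted p = 0.00284 in edgeR). RRAGC, a GTPase that brings mTORC1 to the lysosome, was higher (log2 fold change 0.47, unadjusted p = 0.047 in edgeR). RPTOR, the mTORC1 subunit that binds substrates, was lower, with 802.6, 505.6 and 558.6 against 916.7, 959.6 and 802.6 normalized counts in the same order of steers. Its log2 fold change was -0.52 (standard error 0.21, unadjusted p = 0.0231), and it was lost (p limit not passed) without steer 10-8, 10-9, 3-1 or 3-3, at -0.37 to -0.50. SESN1, a leucine sensor that restrains mTORC1, was lower at -0.98 (standard error 0.27, unadjusted p = 0.00291, adjusted p = 0.156 in edgeR). SESN1 had 2588, 2086 and 2202 against 2530, 6027 and 5038, so steer 3-1 lay among the high-NFMP steers. SESN1 stayed past the p limit whichever steer was left out, and RRAGC was lost without steer 10-9, 3-1, 3-3 or 10-16 and passed in 6 of 14 alternatives in all.

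The vacuolar ATPase acidifies the lysosome. Of its 17 tested genes, ATP6V0C (log2 fold change 0.44) and ATP6V0D1 (0.51) were higher and ATP6V0A2 (-1.01) was lower, with unadjusted p of 0.0253, 0.0383 and 0.0264 in edgeR. Each of the 3 was lost when some steers were left out, ATP6V0C in 3 of 6 fits, ATP6V0D1 in 4 and ATP6V0A2 in 3. Over all 14 alternatives ATP6V0C passed in 9, ATP6V0D1 in 8 and ATP6V0A2 in 11. The 3 called genes were 17.6% of the 17, against 11.5% of all rows, and estimates were higher for 10 and lower for 7, against 51.9% higher over all rows.

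Of 27 tested lysosomal hydrolases and membrane proteins, NPC1, the cholesterol exporter of the lysosome, passed the p limit with 46.6, 45.6 and 66.2 against 34.5, 26.8 and 16.2 normalized counts (log2 fold change 1.03, standard error 0.40, unadjusted p = 0.0214, adjusted p = 0.336 in edgeR). NPC1 was lost without steer 10-9 or 10-16, at 0.85 and 0.82. NPC1 was the 1 gene of the 27 past the limit, a smaller share than the 11.5% of all rows. The estimate was positive for 20 of the 27 genes, with a median of 0.23, and for 51.9% of all tested rows, with a median of 0.02. The 14 tested genes for fusion of autophagosomes with lysosomes held none past the limit, with a median of 0.15.

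Among 14 Beclin 1 partners and autophagosome formation genes, SH3GLB1 and VMP1 were lower and BCL2 was higher, 21.4% of the list against 11.5% of all rows. SH3GLB1, which encodes a membrane-bending partner of the Beclin 1 complex, had 347.6, 344.5 and 339 normalized counts in steers 3-8, 10-8 and 10-9, and 671.7, 503.4 and 536.1 in steers 3-1, 3-3 and 10-16. Every high-NFMP steer was below every low-NFMP steer, and the log2 fold change was -0.73 (standard error 0.19, unadjusted p = 0.00169, adjusted p = 0.117 in edgeR). BCL2, which binds Beclin 1 and holds it inactive, had 838.1, 632.3 and 539.6 against 404.8, 474.7 and 438.2, with a log2 fold change of 0.61 (unadjusted p = 0.00926, adjusted p = 0.251). VMP1, an endoplasmic reticulum protein needed for autophagosome formation, had a log2 fold change of -0.48 (unadjusted p = 0.0481), and it was lost without steer 3-8, 10-8, 3-1 or 3-3 and passed in only 4 of 14 alternatives in all. SH3GLB1 and BCL2 stayed past the p limit whichever steer was left out, and BCL2 was lost with age as a term (unadjusted p = 0.177).

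Of 14 other receptors, CALCOCO1 was higher (log2 fold change 0.46, unadjusted p = 0.0227 in edgeR), 7.14% of the list against 11.5% of all rows. CALCOCO1 was lost without steer 3-1 or 10-16, with log2 fold changes of 0.41 to 0.56 over the fits with a steer left out. It passed in 10 of 14 alternatives in all. Of 6 tested mitophagy kinase and ligase genes, USP15, a deubiquitinase, was lower at -0.72 (standard error 0.19, unadjusted p = 0.00184, adjusted p = 0.122 in edgeR). That was 16.7% of the list against 11.5% of all rows. USP15 had 488.4, 423.4 and 404.2 against 744.5, 808.8 and 613.8 normalized counts and passed in each fit with a steer left out. Of 12 tested transcriptional regulators, DEPP1 was higher and MITF, a relative of TFEB, was lower at -0.49 (unadjusted p = 0.0248 in edgeR). These genes were 16.7% of the list, against 11.5% of all rows. MITF had 3872, 3409 and 3162 against 4347, 4294 and 6010, and it was lost without steer 10-8, 10-9 or 10-16.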

How the data were processed

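Per the labels and the methods of the study, total RNA of LT was made into Lexogen 3′ mRNA libraries and sequenced as single-end 75-base reads. The authors deposited raw read counts per gene symbol, whole numbers without normalization, in 23015 rows. Tophat2 with HTSeq and Bowtie2 are both named by the methods, and Bowtie2 and bedtools by the submitters' processing notes. The sources used here do not give which of these made the counts, nor whether strand was used. Counts of unique and multiple alignments were used by the study. The 3′ reads do not grow with transcript length.

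Tests were run on the deposited counts with edgeR 4.0.16 under R 4.3.3. The filter (minimum count 10, minimum total 15) kept 15039 rows. TMM factors, robust dispersions and the quasi-likelihood test were used, with Benjamini-Hochberg adjustment over all tested rows. The biological coefficient of variation was 25.1%. With 3 steers against 3, an exact permutation test cannot give a p below 0.1. The p-values set the group difference against the spread between steers, with dispersions moderated over all tested rows. Reads carry no molecular identifiers, so counting limits cover counting error only. All 39 genes, the members of pathway lists at an unadjusted p below 0.05 (at most 4 per list and direction), FNIP2 and DEPP1 were to be named, while ratios, overlapping genes and genes that passed with a steer left out were chosen after seeing their values. The genes and lists were chosen with earlier results of these data known. One list symbol, TMEM55B, was matched to PIP4P1 through the RefSeq gene table (ARS-UCD2.0, used for names and overlaps only). ZKSCAN3 and PAX7 were not analysed here. GLA was removed by the filter. Alternatives were 2 other filters, RLE factors, library totals, DESeq2 1.42.0, quantile normalization of log2(count + 1) with limma 3.58.1, a term for the label number or for age, and fits that omitted 1 steer each. The procedures were tested on simulated data.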

Additional observations from a re-analysis of the deposited data

How the results depend on the processing

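No paired analysis was possible because no label number ties 1 high-NFMP steer to 1 low-NFMP steer. The first label number, shared by several steers of both groups, was fitted as a term instead, which left 2 of the 38 genes and 15 pathway genes at an unadjusted p below 0.05, against 10.1% of all rows. The number of the 38 genes past the p and fold change limits was 0 in each alternative but the one with age as a term, where it was 1 (ATG101). The number at an unadjusted p below 0.05 was 2 in edgeR with all steers, TMM scaling, the default filter and no covariate. With age as a term it was 1 (8.38% of all rows). ULK1 passed in 4 alternatives, of which 2 left a steer out, so some alternatives with all steers held it as well. With a steer left out the number was between 1 and 4: 1 without steer 3-1, and 4 without steer 10-8, 10-9 or 10-16. In those fits 8.45%, 9.94%, 10.18% and 9.71% of all rows passed. The number at an adjusted p below 0.05 was 0, but 1 (ATG101) without a filter on low counts and 1 with DESeq2. These fits held 240 of 23015 and 291 of 15039 rows at that limit, against 103 of 15039 in edgeR with the default filter. The median log2 fold change lay between -0.04 and 0.08 over the alternatives, within 0.08, the SD of the genes' median level between steers, of 0.02. The number of pathway genes at an unadjusted p below 0.05 was 15 and between 10 and 24 with a steer left out, the highest value being without steer 3-8, where the share of all rows was also higher, at 15.3% against 11.5%. ATG101 kept its direction and its place past the p limit in all 14 alternatives, with adjusted p between 0.0339 and 0.396, and ATG9A in 12 of 14, with adjusted p between 0.239 and 0.694. No gene past the limit changed sign. FUNDC1, ATG12, ATG4A and ATG4C, the genes with the fewest counts, had standard errors of 0.31 to 0.36 against a median of 0.21. The better counted WIPI1 and BNIP3 had 0.32 and 0.30, and the part of depth in these errors was not tested.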
